A study of Mus musculus with 16 samples.

Results

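Oligodendrocyte precursor genes were followed in the striatum of mice that differed in genotype and in an astrocyte virus. The set holds Pdgfra, Cspg4, C1ql1, Olig1, Olig2, Sox10, Gpr17, Vcan and Neu4, chosen by symbol from a table of read counts, 9 of its 48795 genes. All 9 passed the filter on low counts that kept 20825 genes for testing. Bulk RNA sequencing covered 16 libraries, 4 in each of 4 groups. KO_hM4D mice lacked Sapap3 and received an adeno-associated virus for hM4Di, a Gi-coupled designer receptor placed in astrocytes. KO_tdT mice lacked Sapap3 and received a virus for the fluorescent protein tdTomato. WT_hM4D and WT_tdT mice were wild type and received the hM4Di or the tdTomato virus. Every group was given deschloroclozapine (DCZ), which activates hM4Di, so the drug itself was shared by all comparisons and had no untreated control. The labels do not give the promoter that drove the viral genes, or the age and sex of the mice, and the libraries hold whole striatal tissue.

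Oligodendrocyte precursor cells are the dividing glia from which myelinating oligodendrocytes arise, and they persist throughout the adult brain. Platelet-derived growth factor drives their division through the receptor PDGFRα, while the transcription factors OLIG1, OLIG2 and SOX10 set the lineage and stay on after differentiation. GPR17 marks the transient stage between precursor and myelinating cell. In bulk tissue, fewer cells of a type and less RNA per cell cannot be told apart.

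Sapap3, listed under its current symbol Dlgap3, encodes a postsynaptic scaffold protein. Dlgap3 averaged 159 ± 7.47 CPM (counts scaled to library size) in KO_hM4D, 159.9 ± 3.59 in KO_tdT, 391.6 ± 37.4 in WT_hM4D and 375 ± 60.7 in WT_tdT (SD, n = 4 each). All 8 KO libraries lay below all 8 WT libraries. For 3 of the WT_hM4D libraries 1 label field names the other genotype, and their Dlgap3 level was that of the wild type. Library totals ran from 129149745 to 180655067 counts. Transcripts of both sexes were present in 4 libraries, KO_tdT 3, WT_hM4D 2, WT_hM4D 4 and WT_tdT 4, where Xist and the sum of 4 Y-linked genes each reached 5% of the highest library. KO_tdT 4 lay just under that limit, with 28.2 CPM of Xist and 7.23 CPM of the Y-linked genes. All 4 KO_hM4D libraries held Xist at 30.5 CPM or more and Y-linked sums of at most 0.0949 CPM. Among the other 12 libraries WT_tdT 1 was the 1 with this pattern. Sex and group therefore cannot be told apart in comparisons with KO_hM4D, and 1 mouse per library is uncertain where both kinds of transcript were present.

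Levels of different genes were compared as CPM per kilobase of exon, over all 16 libraries. Transcription factors led the set, with Olig1 and Sox10 at its top. Olig1 had 30.4 ± 4.78 CPM per kilobase, Sox10 had 13.4 ± 2.89 and Olig2 had 8.40 ± 1.55 (SD, n = 16). Gpr17, a G protein-coupled receptor, stood between Sox10 and Olig2 at 10.3 ± 1.47. Pdgfra, the growth factor receptor, had 6.49 ± 0.519 CPM per kilobase. C1ql1, a secreted protein of the C1q family, had 3.34 ± 0.656. Lowest were Cspg4, the NG2 proteoglycan, at 2.06 ± 0.164, Neu4, a sialidase, at 1.74 ± 0.242, and Vcan, the matrix proteoglycan versican, at 1.62 ± 0.207. The order of neighbours held in 14 to 16 of the 16 libraries, except that Neu4 exceeded Vcan in only 10 of them.

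**Figure D1:**
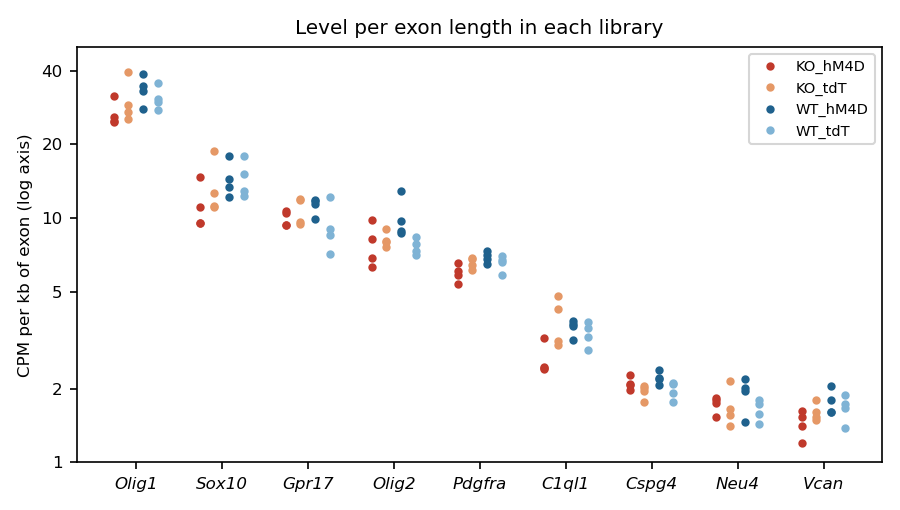
Level of each oligodendrocyte precursor gene in CPM per kilobase of exon, on a log axis, with 1 point per library coloured by group. Olig1 lies highest, at 24.7 to 39.6, and the ranges of Neu4 and Vcan overlap at the bottom.

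The members lie apart in the genome, except for a pair on chromosome 16. On GRCm38, Olig2 spans chr16:91225457-91228677 and Olig1 chr16:91269772-91271933, both on the plus strand. Pdgfra spans chr5:75152292-75198215 and Cspg4 chr9:56865033-56899870, both on the plus strand. C1ql1 lies at chr11:102939264-102946688 and Sox10 at chr15:79154908-79165240, both on the minus strand. Vcan lies at chr13:89655312-89742509 on the minus strand, and Neu4 at chr1:94020451-94028334 on the plus strand. All are protein coding, and a level here is the sum over a gene's exons.

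Sequence upstream of the annotated start is shown for Pdgfra, the receptor that defines the precursor stage, and for Olig2, the member whose values separated 2 groups completely. The sequences are from RefSeq on GRCm38.p6 and run 5′ to 3′ on the gene's own strand. Capitals mark matches to the motifs searched on both strands, which were the E-boxes CAGCTG and CATCTG, the SOX motif ACAAAG, the GC box GGGCGG, the CCAAT box and the TATA box TATAAA. The Pdgfra stretch is chr5:75152001-75152250 and the Olig2 stretch is chr16:91225300-91225456, both on the plus strand.
Pdgfra: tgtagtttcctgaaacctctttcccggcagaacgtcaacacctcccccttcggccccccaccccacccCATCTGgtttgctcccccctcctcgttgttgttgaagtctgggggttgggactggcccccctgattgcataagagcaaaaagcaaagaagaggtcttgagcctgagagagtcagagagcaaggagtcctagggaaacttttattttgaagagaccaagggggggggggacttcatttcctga
Olig2: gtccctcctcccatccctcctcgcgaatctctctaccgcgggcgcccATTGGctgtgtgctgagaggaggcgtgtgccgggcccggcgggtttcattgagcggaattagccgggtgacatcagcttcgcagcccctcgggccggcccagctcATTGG
The Pdgfra stretch of 250 bases held 1 match, to CATCTG, which occurs in 14.4% of 32851 promoter windows of that length. The Olig2 stretch of 157 bases held 2 matches to CCAAT, both on the minus strand, and 21.0% of windows of its length hold at least 1. Olig2's stretch was 66.9% G or C and that of Pdgfra 54.4%. Usable upstream entries were found for 5 of the 9 members, the others being Cspg4, Vcan and Neu4. A match describes these letters only and is not evidence of a bound site.

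Gpr17 lies at chr18:31942997-31949636 on the minus strand and overlaps another gene. Gpr17 shares 188 exon bases with Lims2 on the opposite strand, whose counts came to 15.1% of those of Gpr17. Because the strand setting of the counting is not given in the sources used here, reads in that stretch cannot be assigned with certainty. Every other gene that overlaps a member had counts of at most 0.676% of that member's.

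Genotype and virus were compared with edgeR's quasi-likelihood test on all 16 libraries, with Benjamini-Hochberg adjustment over the 20825 genes. Calls were made at an adjusted p of less than 0.05. None of the 9 members was called in any of the 7 comparisons, which was also the common outcome for genes in general. Called genes made up 0.0384% of all tested in KO_tdT against WT_tdT, 0.0192% in KO_hM4D against WT_hM4D and 0.0864% in WT_hM4D against WT_tdT. They made up 0.0048% in KO_hM4D against KO_tdT and 0% in the interaction of genotype and virus. In the averaged comparisons they made up 0.0768% for KO against WT and 0.0288% for hM4D against tdT. With DESeq2 the count of members was 0 in 6 comparisons and 1 in KO_hM4D against KO_tdT, where C1ql1 passed. It was among 115 genes that DESeq2 called there, where edgeR called 1. Members at an unadjusted p under 0.05 numbered 0, 5, 3, 1, 4, 2 and 2 in these 7 comparisons, in the order just given. These counts are read below against the share of all genes at the same limit.

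**Figure D2:**
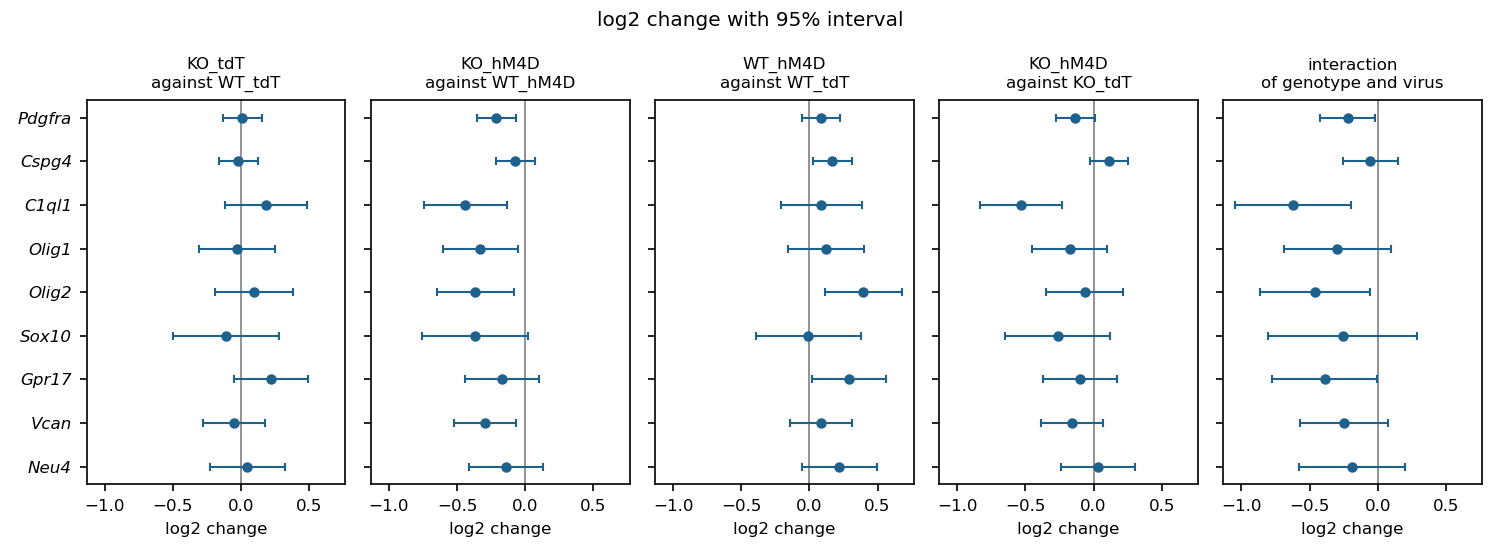
Log2 change of each oligodendrocyte precursor gene (points) with its 95% interval (bars) in 4 comparisons of groups and in the interaction. All 9 points lie left of 0 in KO_hM4D against WT_hM4D and in the interaction, and none was called at an adjusted p under 0.05.

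Within the hM4Di virus, knockout was compared with wild type. All 9 members had negative log2 changes in KO_hM4D against WT_hM4D, with a median of -0.29, whereas the median of all genes was -0.01 and 52.5% of them were negative. None was called by edgeR, and 5 of 9 lay lower at an unadjusted p under 0.05, a limit that 6.66% of all genes passed in that direction. Pdgfra had 58.8, 53.9, 65.7 and 61.0 CPM in KO_hM4D 1 to 4, against 70.6, 65.1, 68.1 and 73.6 CPM in WT_hM4D 1 to 4. KO_hM4D 3 alone reached into the WT_hM4D range. Its log2 change was -0.21 (SE 0.07, 95% interval -0.35 to -0.07, edgeR adjusted p = 0.317), a ratio of 0.863.

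C1ql1 showed the lowest change of the set in this comparison. C1ql1 had 4.73, 3.61, 3.599 and 3.54 CPM in KO_hM4D 1 to 4, against 5.59, 5.44, 4.68 and 5.30 CPM in WT_hM4D 1 to 4. KO_hM4D 1 stood above the other 3 of its group and just above the lowest WT_hM4D library. The log2 change was -0.44 (SE 0.14, 95% interval -0.74 to -0.14, edgeR adjusted p = 0.317). Olig2 had 24.8, 20.8, 15.9 and 17.3 CPM in KO_hM4D 1 to 4, against 32.6, 21.9, 24.7 and 22.4 CPM in WT_hM4D 1 to 4. KO_hM4D 1 exceeded 3 of the 4 WT_hM4D libraries, and WT_hM4D 1 was the highest of all 16. The log2 change of Olig2 was -0.37 (SE 0.13, edgeR adjusted p = 0.332), and without WT_hM4D 1 it was -0.22.

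Olig1 and Sox10 are the other lineage transcription factors of the set. Olig1 had 68.4, 53.4, 53.7 and 56.0 CPM in KO_hM4D 1 to 4, against 83.8, 60.5, 71.6 and 74.7 CPM in WT_hM4D 1 to 4. KO_hM4D 1 and WT_hM4D 2 were the libraries that made the groups overlap. The log2 change was -0.33 (SE 0.13, edgeR adjusted p = 0.341). Sox10 had 44.9, 33.9, 29.2 and 29.0 CPM in KO_hM4D 1 to 4, against 54.7, 37.2, 44.1 and 40.9 CPM in WT_hM4D 1 to 4. Again KO_hM4D 1 lay within the WT_hM4D range and the other 3 lay below it. The change was -0.37 (SE 0.18, 95% interval -0.76 to 0.02, edgeR adjusted p = 0.410).

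Vcan had 23.5, 17.4, 22.3 and 20.3 CPM in KO_hM4D 1 to 4, against 29.6, 23.3, 26.1 and 23.3 CPM in WT_hM4D 1 to 4. The groups met at KO_hM4D 1, and the log2 change was -0.29 (SE 0.11, edgeR adjusted p = 0.332). Gpr17, Neu4 and Cspg4 had changes of -0.17 (SE 0.13), -0.14 (SE 0.13) and -0.07 (SE 0.07), with intervals that crossed 0. The groups overlapped for all 9 members, while 6.09% of all genes had groups that did not overlap. Counts at an unadjusted p under 0.05 rested on a few libraries, being 3 without KO_hM4D 2 or KO_hM4D 3 and 2 without WT_hM4D 1. Mature oligodendrocyte genes moved alongside, with a summed level of 6033 to 8828 CPM in KO_hM4D and 6717 to 11114 CPM in WT_hM4D. Negative changes were also found for 12 of 12 microglia genes (median -0.13) and 11 of 12 genes of striatal projection neurons (median -0.24). The same held for 10 of 14 reactive astrocyte genes (median -0.25), 9 of 10 ependymal genes (median -0.39) and 8 of 12 pericyte genes (median -0.04). Other lists went the other way. Positive changes were found for 10 of 12 extrastriatal neuron genes (median 0.37), 8 of 12 fibroblast genes (median 0.12) and 8 of 14 astrocyte genes (median 0.08). At an unadjusted p under 0.05, 4 microglia and 5 reactive astrocyte genes lay lower. DESeq2 called the reactive astrocyte genes Vim (-0.40, adjusted p = 0.0351) and Cxcl10 (-2.33, adjusted p = 0.000163) lower. The part of these lists in the members' values was not tested.

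**Figure D3:**
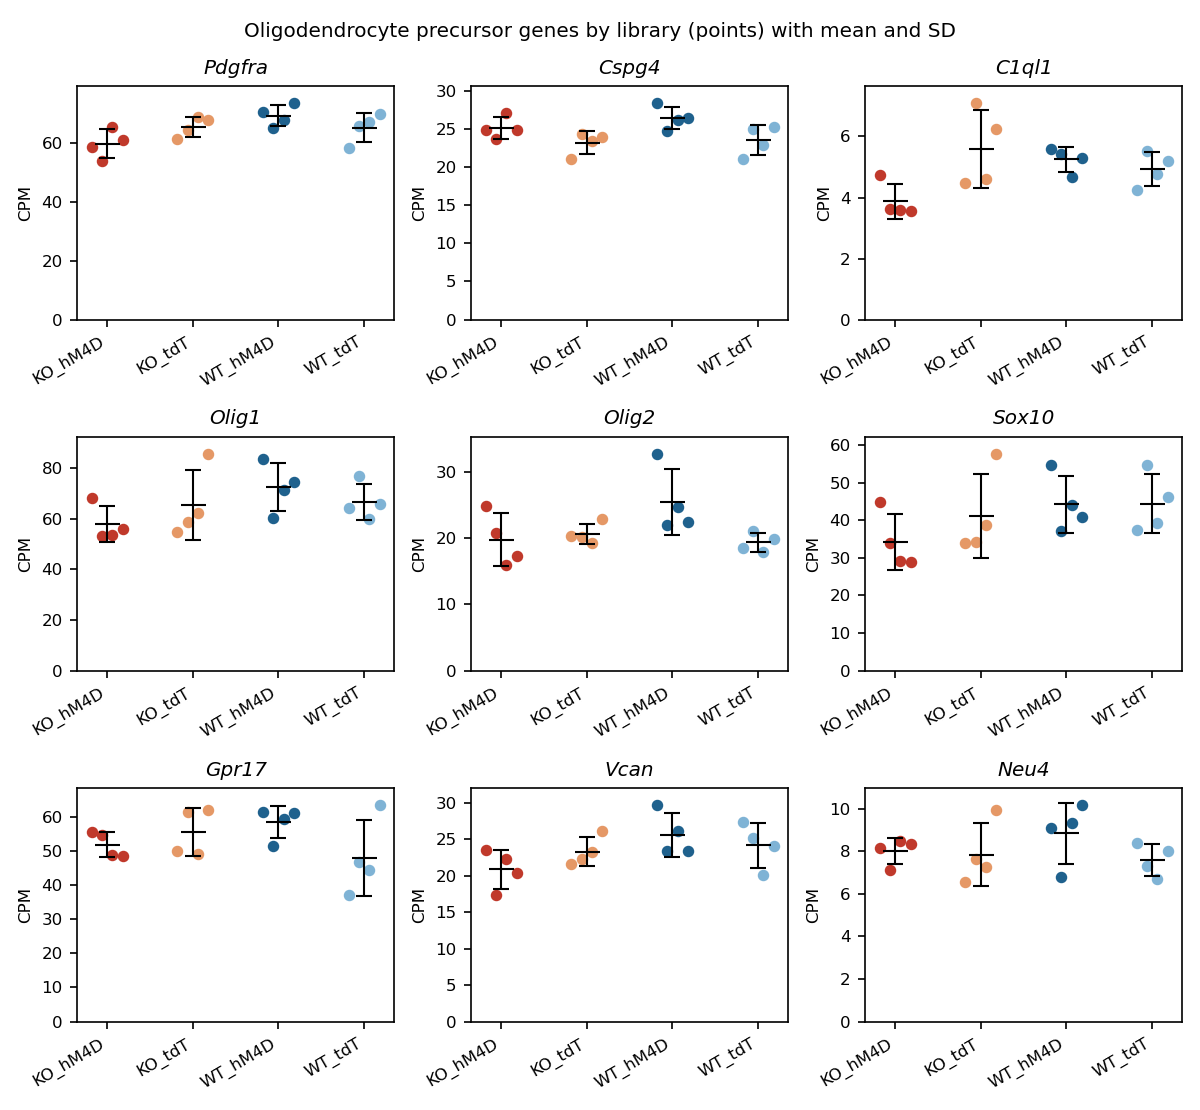
CPM of the 9 oligodendrocyte precursor genes in each library (points), with the mean and SD of 4 libraries per group (bars), from KO_hM4D on the left to WT_tdT on the right. Olig2 in WT_hM4D lies wholly above WT_tdT, and C1ql1 in KO_hM4D has 3 libraries at 3.54 to 3.61 CPM and 1 at 4.73 CPM.

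The effect of the receptor in wild-type mice was taken from WT_hM4D against WT_tdT. Here 8 of 9 members had positive log2 changes, with a median of 0.12, beside a median of 0.00 over all genes, of which 50.3% were positive. None was called by edgeR, and 3 of 9 lay higher at an unadjusted p under 0.05, a limit that 6.57% of all genes passed in that direction. Olig2, the basic helix-loop-helix factor that specifies the lineage, had 32.6, 21.9, 24.7 and 22.4 CPM in WT_hM4D 1 to 4, against 18.5, 21.1, 17.8 and 19.8 CPM in WT_tdT 1 to 4. These were the only groups that did not overlap for any member in this comparison, and 3.64% of all genes had WT_hM4D wholly above WT_tdT. Its log2 change was 0.40 (SE 0.13, 95% interval 0.11 to 0.68, edgeR adjusted p = 0.293), a ratio of 1.32, and without WT_hM4D 1 it was 0.25.

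Gpr17 had 61.4, 51.5, 59.4 and 60.9 CPM in WT_hM4D 1 to 4, against 36.9, 46.6, 44.3 and 63.3 CPM in WT_tdT 1 to 4. WT_tdT 4 was the highest of all 8 and the other 3 WT_tdT libraries were the lowest. The log2 change of Gpr17 was 0.29 (SE 0.13, 95% interval 0.02 to 0.56, edgeR adjusted p = 0.419). It was 0.18 without WT_tdT 1 and 0.44 without WT_tdT 4. Cspg4 had 28.4, 24.8, 26.2 and 26.4 CPM in WT_hM4D 1 to 4, against 21.1, 25.1, 22.9 and 25.2 CPM in WT_tdT 1 to 4. WT_hM4D 2 lay within the WT_tdT range, and the change was 0.17 (SE 0.07, edgeR adjusted p = 0.379). Cspg4 is also a gene of pericytes, whose 12 listed markers summed to 195 to 210.0 CPM in WT_hM4D and 193 to 210.1 CPM in WT_tdT.

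The other 6 members did not reach an unadjusted p under 0.05 in WT_hM4D against WT_tdT. Neu4 averaged 8.85 ± 1.43 CPM in WT_hM4D and 7.60 ± 0.751 CPM in WT_tdT, Pdgfra 69.3 ± 3.62 and 65.4 ± 5.01 CPM, and Olig1 72.7 ± 9.62 and 66.8 ± 7.18 CPM, WT_hM4D first (SD, n = 4 each). Sox10 was at 44.2 ± 7.57 CPM in WT_hM4D and 44.4 ± 7.80 CPM in WT_tdT, a log2 change of -0.01 (SE 0.18). C1ql1 was at 5.25 ± 0.401 CPM in WT_hM4D and 4.94 ± 0.551 CPM in WT_tdT, and Vcan at 25.6 ± 2.996 CPM in WT_hM4D and 24.1 ± 3.05 CPM in WT_tdT. Each of these 6 differences was smaller than the larger SD of its 2 groups. The count of 3 at an unadjusted p under 0.05 was 0 without WT_hM4D 1 and 1 without WT_tdT 1 or WT_tdT 3. Microglia genes also lay higher in this comparison, with 9 of 12 at an unadjusted p under 0.05 beside the 6.57% of all genes, and summed to 603 to 698 CPM in WT_hM4D and 545 to 596 CPM in WT_tdT. None of the 12 was called by edgeR, DESeq2 called Tmem119 and Ctss higher, and their part in the members' values was not tested.

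In knockout mice the receptor was assessed as KO_hM4D against KO_tdT. Of the 9 members 7 had negative changes, with a median of -0.13, beside a median of 0.00 over all genes. C1ql1 was the only member at an unadjusted p under 0.05, and 5.59% of all genes lay lower at that limit. C1ql1, whose protein binds an adhesion-type receptor at synapses, had 4.73, 3.61, 3.599 and 3.54 CPM in KO_hM4D 1 to 4, against 4.47, 7.09, 4.61 and 6.26 CPM in KO_tdT 1 to 4. KO_hM4D 1 lay within the KO_tdT range and the other 3 lay below it, while KO_tdT 2 was the highest of all 16 libraries. The log2 change was -0.53 (SE 0.14, 95% interval -0.84 to -0.23, edgeR adjusted p = 0.281), a ratio of 0.691.

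With DESeq2 the C1ql1 change was -0.54 and was called (DESeq2 adjusted p = 0.0488), and over all alternatives its adjusted p ran from 0.0488 to 0.751. C1ql1 had 503 to 1034 counts per library, the fewest at its lowest of the 9 members. The groups overlapped for all 9 members, against 4.88% of all genes without overlap. Pdgfra averaged 59.8 ± 4.90 CPM in KO_hM4D and 65.7 ± 3.41 CPM in KO_tdT (SD, n = 4 each), and its log2 change was -0.13 (SE 0.07, edgeR adjusted p = 0.467). Cspg4 ran the other way, at 25.1 ± 1.41 CPM in KO_hM4D and 23.2 ± 1.502 CPM in KO_tdT, a change of 0.11 (SE 0.07, edgeR adjusted p = 0.536). KO_tdT 4 was the highest KO_tdT library for Olig1, Olig2, Sox10, Gpr17, Vcan and Neu4.

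With all 16 libraries, the members under knockout alone, KO_tdT against WT_tdT, lay close to the wild-type level. Their median log2 change was 0.01, beside -0.00 over all genes, with 5 positive and 4 negative. No member reached an unadjusted p under 0.05 with edgeR or DESeq2, while 8.69% of all genes did so with edgeR. That count was 1 without WT_tdT 4, and 1 without the 4 mixed libraries, whether KO_tdT 4 was kept or not. It was 2 with only libraries of Xist under 5% of the highest. Over all alternatives Sox10 ran from -0.46 to 0.0043, Olig1 from -0.27 to 0.046 and Gpr17 from 0.11 to 0.44, and no member was called. Groups overlapped for all 9, and 4.09% of all genes had groups that did not. Pdgfra had 61.5, 64.4, 69.0 and 67.9 CPM in KO_tdT 1 to 4, against 58.3, 65.9, 67.2 and 70.0 CPM in WT_tdT 1 to 4. The KO_tdT range lay inside the WT_tdT range, and the change was 0.01 (SE 0.07, 95% interval -0.13 to 0.15, edgeR adjusted p = 0.988). The outermost bound of the 9 intervals was 0.50 on the log2 scale, so differences of up to that size lay within them. Gpr17 had the largest change of the 9, at 0.22 (SE 0.13, 95% interval -0.05 to 0.49, edgeR adjusted p = 0.665), and it was 0.11 without WT_tdT 1 and 0.38 without WT_tdT 4.

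The interaction asks whether the receptor's effect differed between genotypes, and was negative for all 9 members. Its median was -0.26, beside -0.00 over all genes, of which 51.2% were negative. None was called, and 4 of 9 lay lower at an unadjusted p under 0.05, a limit that 3.49% of all genes passed in that direction. C1ql1 had an interaction of -0.62 (SE 0.20, edgeR adjusted p = 0.658), from a virus change of -0.53 in knockout and 0.09 in wild-type mice. Olig2 had -0.46 (SE 0.19, edgeR adjusted p = 0.704), from -0.06 in knockout and 0.40 in wild-type mice. Gpr17 had -0.39 (SE 0.18, edgeR adjusted p = 0.734) and Pdgfra -0.22 (SE 0.09, edgeR adjusted p = 0.718). No difference between genotypes in the response to the receptor was therefore called for any member. The count of 4 was 1 without KO_tdT 4 or WT_hM4D 1, and 2 without any of KO_hM4D 3, KO_hM4D 4, WT_hM4D 4, WT_tdT 1 or WT_tdT 3.

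Averaged over both viruses, KO against WT gave negative changes for 8 of 9 members, with a median of -0.13. Vcan had -0.17 (SE 0.08, edgeR adjusted p = 0.329) and Pdgfra -0.10 (SE 0.05, edgeR adjusted p = 0.346), the 2 members at an unadjusted p under 0.05, which 7.94% of all genes passed in that direction. That count was 0 without any of KO_hM4D 2, KO_hM4D 4, KO_tdT 1, KO_tdT 2, WT_hM4D 1, WT_hM4D 3, WT_tdT 2 or WT_tdT 4. It was 1 without KO_tdT 3, WT_hM4D 4, WT_tdT 1 or WT_tdT 3, and 4 without KO_hM4D 1 or KO_tdT 4. Averaged over both genotypes, hM4D against tdT gave Cspg4 a change of 0.14 (SE 0.05, 95% interval 0.04 to 0.24, edgeR adjusted p = 0.183). C1ql1 had -0.22 (SE 0.10, edgeR adjusted p = 0.301), and these 2 members compare with 15.3% of all genes at an unadjusted p under 0.05 in either direction. The count was 1 without any of KO_hM4D 2, KO_hM4D 4, KO_tdT 2, WT_hM4D 3, WT_hM4D 4 or WT_tdT 2.

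Members differed in how much they varied between libraries of 1 group. Pdgfra in KO_tdT had the smallest coefficient of variation, 5.19%, and Sox10 in KO_tdT the largest, 27.2%. Gpr17 reached 23.3% in WT_tdT and C1ql1 22.8% in KO_tdT. Within KO_tdT, Sox10 had 33.9, 34.3, 38.7 and 57.5 CPM in KO_tdT 1 to 4, and Olig1 had 54.9, 58.6, 62.5 and 85.6 CPM. KO_tdT 4 stood apart for both genes. Its 16 mature oligodendrocyte genes summed to 11888 CPM, the highest of all libraries, beside 5190 to 7549 CPM in KO_tdT 1 to 3.

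**Figure D4:**
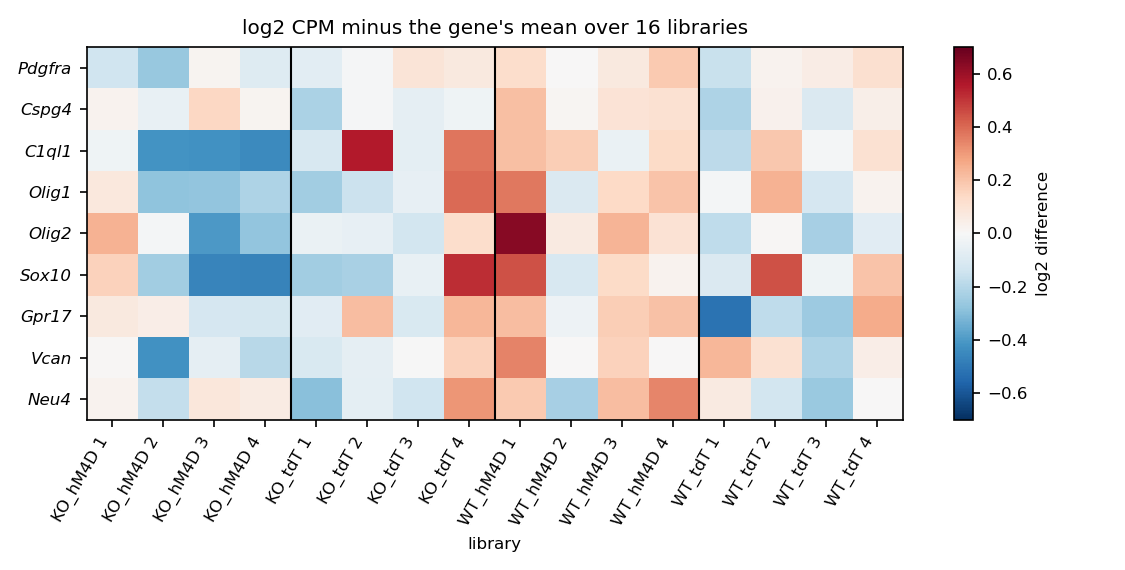
Log2 CPM of each oligodendrocyte precursor gene minus its own mean over 16 libraries, with libraries in columns by group. WT_hM4D 1 is the highest library of Olig2, KO_tdT 4 is the highest of Sox10, and 3 KO_hM4D libraries are the lowest of C1ql1.

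Mature oligodendrocyte genes, such as Mbp and Mog of the myelin sheath, tracked the members across libraries to differing degrees. The Pearson correlation with the mean log2 CPM of 16 mature genes over 16 libraries was 0.918 for Olig1, 0.867 for Sox10 and 0.776 for Vcan. It was 0.568 for Neu4, 0.559 for Olig2, 0.485 for Pdgfra, 0.321 for C1ql1, 0.252 for Cspg4 and 0.152 for Gpr17. Taken on deviations from the group means, it was 0.907 for Olig1, 0.831 for Sox10, 0.705 for Vcan, 0.646 for Neu4 and 0.566 for Olig2. It was 0.304 for Cspg4, 0.289 for Pdgfra, 0.186 for Gpr17 and 0.119 for C1ql1. These values describe libraries that share dissection, depth and scaling, and no test was attached. Among the members themselves, Olig1 and Sox10 had the highest correlation, 0.924, and Gpr17 and Vcan the lowest, 0.128.

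**Figure D5:**
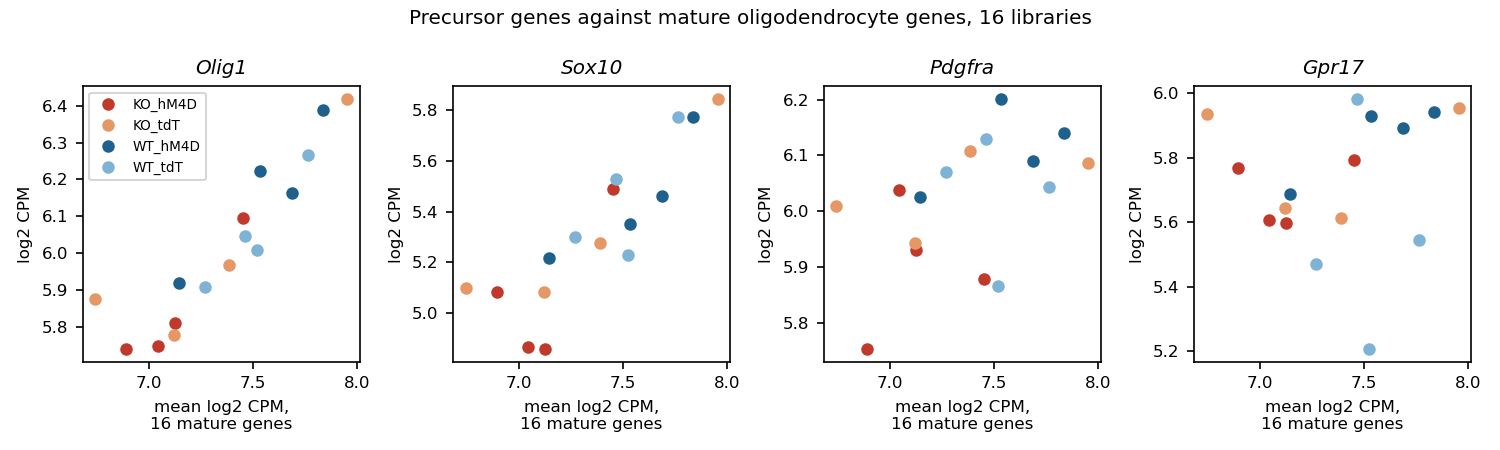
Log2 CPM of Olig1, Sox10, Pdgfra and Gpr17 against the mean log2 CPM of 16 mature oligodendrocyte genes, with 1 point per library coloured by group. Olig1 and Sox10 are higher where the mature genes are higher (Pearson r of 0.918 and 0.867 over 16 libraries), while Gpr17 shows little relation (0.152).

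The 5 genes outside the set most like the members' mean profile, among 13956 genes of at least 1 CPM, were Mid1ip1, Tgfbi, Btd, Car2 and Gm5067. Their Pearson correlations with it over 16 libraries were 0.927, 0.901, 0.897, 0.897 and 0.895. Car2 encodes carbonic anhydrase II, an enzyme abundant in oligodendrocytes, and Mid1ip1 a regulator of fatty acid synthesis. Mid1ip1 averaged 85.0 CPM and Car2 173 CPM.

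Another list held 24 other genes of precursor cells, and none was called by edgeR in any comparison, with 2 to 6 at an unadjusted p under 0.05. Over all genes, 6.77% to 15.3% passed that limit, depending on the comparison. Its median change was 0.02 in KO_tdT against WT_tdT, -0.15 in KO_hM4D against WT_hM4D, 0.02 in WT_hM4D against WT_tdT and -0.13 in KO_hM4D against KO_tdT. Chst5, a sulfotransferase, had 0.65 in WT_hM4D against WT_tdT (SE 0.14, edgeR adjusted p = 0.0857), and DESeq2 called it there (adjusted p = 0.00464). Fabp7, a fatty acid binding protein of progenitors and astrocytes, had -0.55 in KO_hM4D against KO_tdT (SE 0.14, edgeR adjusted p = 0.281, DESeq2 adjusted p = 0.0358). DESeq2 also called Chst5 in hM4D against tdT over both genotypes (0.34, adjusted p = 0.0388) and Ptprz1, a receptor phosphatase of precursors and astrocytes, in KO against WT (0.14, adjusted p = 0.0463). The list as a whole summed to 1407 to 1457 CPM in KO_hM4D, 1464 to 1554 CPM in KO_tdT, 1391 to 1456 CPM in WT_hM4D and 1351 to 1544 CPM in WT_tdT.

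The signals that precursors receive were covered by 25 genes, among them ligands and receptors of the PDGF, FGF, Notch, BMP and IGF pathways. None was called by edgeR or DESeq2, with 2 to 4 at an unadjusted p under 0.05 by edgeR. Depending on the comparison, 6.77% to 15.3% of all genes passed that limit. Fgfr1, a fibroblast growth factor receptor, had 0.22 in WT_hM4D against WT_tdT (SE 0.07) and also 0.21 in KO_tdT against WT_tdT (SE 0.07). Pdgfc, a PDGF ligand, had 0.30 in WT_hM4D against WT_tdT (SE 0.13). In KO_hM4D against WT_hM4D, Id4, a BMP-responsive inhibitor of differentiation, had -0.43 (SE 0.14) and Fgfr2 had -0.42 (SE 0.14). Of 14 proliferation genes none was called by edgeR. Negative changes were found for all 14 in KO_hM4D against WT_hM4D (median -0.27), 13 in KO_tdT against WT_tdT (median -0.25), 13 in KO_hM4D against KO_tdT (median -0.09) and 11 in WT_hM4D against WT_tdT (median -0.18). Over all genes 52.5%, 50.1%, 49.5% and 49.7% were negative in these comparisons. At an unadjusted p under 0.05 by edgeR, 1, 2, 1 and 1 of the 14 lay lower. The list's level was low, with a mean log2 CPM from 0.083 in KO_tdT 2 to 1.11 in WT_tdT 2. DESeq2 called Ccnb1, cyclin B1, in hM4D against tdT over both genotypes (-0.30, adjusted p = 0.0391).

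Further along the lineage, none of the 14 genes of committed precursors and none of the 16 mature genes was called by edgeR or DESeq2. At an unadjusted p under 0.05 by edgeR, 0 to 3 of the committed and 0 to 4 of the mature genes passed. Those 3 and 4 lay lower in KO_hM4D against WT_hM4D, where 6.66% of all genes did so. In KO against WT over both viruses 4 mature genes also lay lower, beside 7.94% of all genes. All 16 mature genes had negative changes in KO_hM4D against WT_hM4D (median -0.42) and in KO against WT over both viruses (median -0.27). Opalin, a myelin membrane protein, had -0.86 in KO_hM4D against WT_hM4D (SE 0.29), and Aspa, aspartoacylase, had -0.68 (SE 0.23). Enpp6, a marker of newly forming oligodendrocytes, had -0.63 (SE 0.25). Without the 4 libraries of mixed sex transcripts, the average of KO against WT called 0 mature and 0 committed genes, and 1 gene in all. KO_tdT 4 had the highest sum of mature genes of all libraries, 11888 CPM. A fit chosen after seeing the data left it out as well, keeping only KO_tdT 1 and KO_tdT 2 of its group. It called 11 of the 16 mature genes and 2 of the 14 committed genes, all lower, among 772 genes in all. That fit also called Sapcd2 of the other precursor genes and Fgfr2, Jag1 and Id4 of the signals, all lower, and Igf1, higher, which was named after its value was seen. The calls were not limited to the lineage, as it called the fibroblast genes Islr, Ogn and Fmod and the astrocyte gene Gjb6 higher. It called Cxcl10 of reactive astrocytes, Itgam of microglia and Adora2a and Rgs9 of striatal projection neurons lower. None of the 9 precursor members was called in it, and the smallest edgeR adjusted p among them was 0.0558, for Olig1.

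Other cell types were measured beside the members. None of the listed astrocyte, microglia, pericyte, fibroblast, ependymal, striatal projection neuron or extrastriatal neuron genes was called by edgeR with all 16 libraries. At most 6, 9, 3, 5, 4, 1 and 5 of their 14, 12, 12, 12, 10, 12 and 12 genes passed an unadjusted p under 0.05 in any comparison. Of all genes 6.77% to 15.3% did so, depending on the comparison. The 9 are the microglia genes higher in WT_hM4D against WT_tdT. DESeq2 called at most 3 astrocyte, 4 microglia and 2 extrastriatal genes and 0 of the other 4 lists. The 2 extrastriatal genes were Shox2 and Calb2, higher in KO_tdT against WT_tdT. In KO against WT over both viruses, all 12 extrastriatal genes had positive changes (median 0.31). There 11 of 12 genes of striatal projection neurons had negative ones (median -0.22). Fibroblast genes, which are listed because Pdgfra is also expressed by such cells, summed to 56.2 to 77.5 CPM in KO_hM4D, 49.2 to 90.5 CPM in KO_tdT, 50.8 to 75.5 CPM in WT_hM4D and 43.1 to 70.7 CPM in WT_tdT. Genes of reactive astrocytes were the exception. In WT_hM4D against WT_tdT 5 of 14 rose, among them Vim, an intermediate filament protein, by 0.90 (SE 0.09, edgeR adjusted p = 0.000602) and Serpina3n, a protease inhibitor, by 1.51 (SE 0.16, edgeR adjusted p = 0.000602). C4b, a complement component, rose by 1.90 there (SE 0.21, edgeR adjusted p = 0.000767) and was the 1 gene of the list called in KO_hM4D against KO_tdT (1.497, SE 0.21, edgeR adjusted p = 0.0448). Without the 4 libraries of mixed sex transcripts, which leaves 2 WT_hM4D and 3 WT_tdT libraries, none of the 14 was called in either comparison. Over both genotypes 5 of the 14 rose, and 3 did so without the mixed libraries. With KO_tdT 4 also left out, 3 were called in WT_hM4D against WT_tdT and 0 over both genotypes. With all 16 libraries, DESeq2 called 8 of the 14 in WT_hM4D against WT_tdT and 5 in KO_hM4D against KO_tdT, all higher. In each of these comparisons 13 of the 14 genes had positive changes. The part of the reactive astrocyte genes in the members' values was not tested.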

How the data were processed

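The deposited values are raw counts of reads, as integers, in 1 table of 48795 genes by 16 libraries. Per the labels' protocols, RNA from striatum injected with adeno-associated virus was column purified and made into stranded, ribosomal RNA depleted libraries. Per the submitters' processing notes, bcl2fastq 2.17, STAR and HTSeq were used, with the builds GRCm38 and mm10. The sources used here do not give the versions of STAR and HTSeq, the strand setting or the annotation. Groups came from titles, descriptions and genotype fields.

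Counts were tested in R 4.3.3 with edgeR 4.0.16. Genes were filtered by filterByExpr (20825 kept) and scaled with TMM. A quasi-likelihood model held the 4 groups as coefficients and took in all 16 libraries, leaving 12 residual degrees of freedom, with a biological coefficient of variation of 0.127. The 7 comparisons were tested two-sidedly, and p-values were adjusted by Benjamini-Hochberg over every tested gene. DESeq2 1.42.0 was an alternative, beside RLE scaling, no filter, a replicate block, each library left out, fits without mixed libraries and fits of only the groups compared. CPM carry TMM factors, and log2 CPM a prior count of 2. The procedure was tested on simulated counts. Chi-square per degree of freedom was 12.3 to 138 for library pairs within groups, so none was a duplicate. P-values set a difference between groups against the spread between libraries. Where 1 mouse per library is uncertain, that need not be the spread between mice. Intervals cover 95%.

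GENCODE M21 gave coordinates and exon lengths, with 48349 identifiers matched, and RefSeq the sequences. Named genes were all members, at most 3 per other list and comparison by smallest p, and the 5 with the most similar profile, unless stated. Lists of other precursor genes, signals, committed and mature oligodendrocytes, proliferation, pericytes, fibroblasts, astrocytes, reactive astrocytes, microglia, neurons and ependymal cells share Lims2, Bmp4 and Tcf7l2. Members and lists were chosen with earlier results of these data known.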

Additional observations from a re-analysis of the deposited data

Results flagged for a closer look

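C1ql1 in KO_hM4D 1 stood apart from the other libraries of its group, at 4.73 CPM against 3.54 to 3.61 CPM in KO_hM4D 2 to 4. Its gap to the nearest library was 0.941 of the group's range, above the critical value of Dixon's test for 4 libraries. It was the only case among 36 sets of 4 libraries screened. Chance alone flags about 1 in 20 sets, so 1 case among 36 is no more than chance would give.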

How the results depend on the processing

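The count of members called was 0 in all 7 comparisons under every alternative run, except for DESeq2 in KO_hM4D against KO_tdT, where it was 1 (C1ql1). Of the members' log2 changes under alternatives, 45 had the opposite sign and 1394 kept both sign and call. Leaving out 1 library at a time, in KO_tdT against WT_tdT Pdgfra ran from -0.045 to 0.042, Cspg4 from -0.072 to 0.024, Olig1 from -0.19 to 0.046, Sox10 from -0.32 to 0.0043, Vcan from -0.13 to 0.013 and Neu4 from -0.086 to 0.13. In WT_hM4D against WT_tdT Sox10 ran from -0.13 to 0.11. In KO_hM4D against KO_tdT Olig2 ran from -0.20 to 0.027 and Neu4 from -0.057 to 0.17. Averaged, Gpr17 ran from -0.033 to 0.11 in KO against WT, and Olig1 from -0.073 to 0.051 and Vcan from -0.077 to 0.0016 in hM4D against tdT.

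Without the 4 mixed libraries, Cspg4 was 0.0097 in KO_tdT against WT_tdT, Sox10 0.16 in WT_hM4D against WT_tdT and Neu4 -0.0053 in KO_hM4D against KO_tdT, and Olig1 was 0.0018 and Vcan 0.017 in averaged hM4D against tdT. Both further fits with fewer libraries were chosen after seeing the data. Without KO_tdT 4 as well, Pdgfra was -0.018 and Neu4 -0.070 in KO_tdT against WT_tdT, Sox10 0.17 in WT_hM4D against WT_tdT, and Olig1 0.027 and Sox10 0.0046 in KO_hM4D against KO_tdT. In averaged hM4D against tdT that fit gave Pdgfra 0.022, Olig1 0.12, Sox10 0.087 and Vcan 0.065. With only libraries of Xist under 5%, which hold no KO_hM4D, Pdgfra was -0.075 in KO_tdT against WT_tdT, and C1ql1 was -0.014 and Sox10 0.062 for the receptor in wild type. The causes were not tested.

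All-gene calls moved more than the members. From 8, 4, 18, 1, 0, 16 and 6 in the 7 comparisons, DESeq2 gave 64, 80, 240, 115, 13, 210 and 652, and the mixed-library fits gave 1 to 62, 1, 1 to 14, 0, 1 to 3, 1 to 772 and 0 to 3. Leaving out 1 library at a time gave 2 to 32, 1 to 9, 6 to 65, 0 to 8, 0 to 4, 7 to 163 and 5 to 284. Fits of only the 2 groups compared gave 1, 7, 49 and 0 in the first 4, and without a filter the last comparison gave 41. No pairing of libraries by replicate number was seen, which does not exclude a weak one. Same-numbered libraries' deviations correlated at -0.22 to 0.29, and 3 of 16 libraries correlated best with their own number. With a replicate block 0 members were called in all 7 comparisons, and all-gene calls were 9, 4, 13, 0, 0, 11 and 6. With 4 libraries a group, the median SE of a gene's log2 change was 0.12 at this depth.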
